A study of Mus musculus with 6 samples.

Results

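Expression of 10 genes of extracellular matrix proteolysis was compared between CD34 negative and CD34 positive cancer-associated fibroblasts (CAFs) of mouse mammary tumors. The genes were taken by symbol from a list of 7 matrix metalloproteinases (Mmp2, Mmp3, Mmp11, Mmp13, Mmp14, Mmp19 and Mmp23) and 3 of their tissue inhibitors (Timp1, Timp2 and Timp3). All 10 were found among the 27179 genes of the count table, and all 10 were among the 14855 genes that passed the filter on low counts and were tested. The tumors came from female raGFP-Wnt1 mice, in which MMTV-Wnt1, a Wnt1 transgene driven by a viral promoter active in mammary epithelium, is combined with a Pdgfra H2B-GFP reporter that gives Pdgfra-expressing cells a green fluorescent nucleus. The GFP+ CAFs of each of 3 tumors were sorted by flow cytometry into a CD34 negative and a CD34 positive fraction, so that each fraction was measured as 3 RNA-seq libraries. Transgene and reporter were present in both fractions, no treatment was applied, and the age of the tumor-bearing mice was not given in the sources used here. Because the reporter defined the sort, CAFs that do not express Pdgfra were outside both groups. Libraries are named here by CD34 status and tumor number.

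Matrix metalloproteinases (MMPs) are zinc-dependent endopeptidases that are made as inactive precursors and cleave collagens, fibronectin and other proteins outside the cell or at its surface. Tissue inhibitors of metalloproteinases (TIMPs) bind the active site of MMPs, and TIMP2 also takes part in the activation of the MMP2 precursor by the membrane-bound enzyme MMP14. In carcinomas a large part of both families is made by fibroblasts and other stromal cells. The transcript level measured here is not a measure of enzyme activity, since activation, inhibition and shedding act on the protein.

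Total counts per library lay between 16238059 and 86609267, and the 10 genes together held 0.962% to 1.25% of the counts of a library. The least abundant value, Mmp13 in positive library 1, rested on 469 counts, which is 28.9 CPM (counts scaled to a common library total) with a 95% Wilson interval of 26.4 to 31.6 that covers counting error only. Counting error was thus small beside the differences between tumors. Negative library 3 stood apart from the others: counts were found for 14314 genes in it, the lowest number of the 6 libraries, where the highest was 19220. Values without its tumor are therefore given beside the calls with the tumor block. Cd34 itself was at 79.1, 41.9 and 102 CPM (from here on also scaled by TMM factors, which correct for library composition) in negative libraries 1, 2 and 3, and at 677, 562 and 1604 CPM in the positive libraries, so the groups did not overlap in the sorted marker. In a bulk library, fewer cells of a type and less RNA per cell cannot be told apart, and this holds for each level below.

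Of the 10 genes, RefSeq (GRCm38.p6) gave the promoter of 8, with separate starts for Mmp23 at 155653384 and 155653290. Mmp13 and Mmp3 lie on the plus strand of chromosome 9, at 7272514 to 7283333 and 7445822 to 7455975, in a cluster with Mmp12, Mmp1b, Mmp1a, Mmp10, Mmp8, Mmp27, Mmp20 and Mmp7. Mmp11 lies on the minus strand of chromosome 10, at 75923221 to 75932502. The 120 bases before the annotated start of these genes are printed because Mmp13 and Mmp3, of the same cluster, share short motifs, and because Mmp11 had the largest fold change of the 10 genes. Capitals mark matches to TGANTCA, the letters bound by AP-1 factors, and to TATAA, a core promoter element.
Mmp13, chr9:7272394-7272513, plus strand: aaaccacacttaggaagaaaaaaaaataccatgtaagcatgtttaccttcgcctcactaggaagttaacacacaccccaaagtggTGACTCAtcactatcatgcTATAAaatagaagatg
Mmp3, chr9:7445702-7445821, plus strand: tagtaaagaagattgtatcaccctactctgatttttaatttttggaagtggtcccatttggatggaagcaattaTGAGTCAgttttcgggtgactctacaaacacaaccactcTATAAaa
Mmp11, chr10:75932503-75932622, minus strand: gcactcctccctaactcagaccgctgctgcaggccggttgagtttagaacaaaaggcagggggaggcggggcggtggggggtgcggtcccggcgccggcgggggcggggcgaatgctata
Within 250 bases before the start and on either strand, TGANTCA was found in Mmp13, 35 bases before the start, and in Mmp3, 46 bases before it. It was found in no promoter of the other 6 genes searched. The letters occur in 6.75% of 32851 mouse promoters of this length. TATAA within 40 bases before the start was likewise found in Mmp13 and Mmp3, and in 4.23% of all promoters. In the printed sequences it lies closer to the annotated start in Mmp3 than in Mmp13. Whether it serves as a core promoter element at these places was not tested. AGGAAG, a motif of ETS factors such as PEA3, was found for 5 of the 8 genes (Mmp13, Mmp3, Mmp14, Timp1 and Timp3) and in 29.5% of all promoters. These matches describe the letters of a window and do not show that a factor was bound. Distances are to the annotated RefSeq start, and which start these cells use was not tested. For Mmp13 and Mmp3 it lay at or near the start of the gene in the GENCODE annotation. For Mmp11, Timp2 and the Mmp23 start at 155653290 the annotations placed the start apart, so the bases printed for Mmp11 depend on the annotation used.

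**Figure D1:**
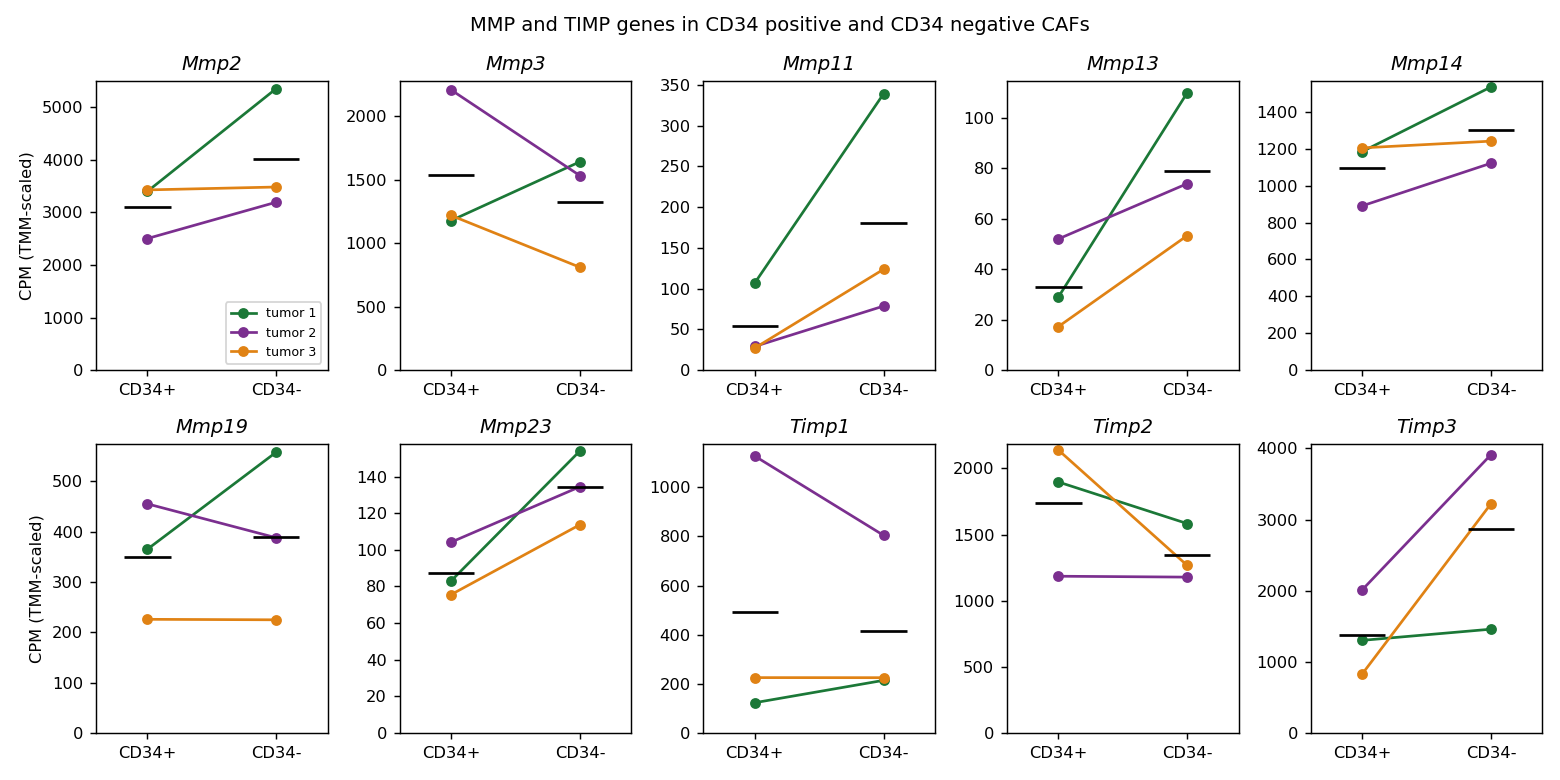
Each panel plots the TMM-scaled CPM of 1 gene in the 6 libraries, with a line joining the 2 fractions of a tumor and a black bar at the mean of each fraction. Mmp11, Mmp13, Mmp23 and Timp3 were higher in the CD34 negative fraction in 3 of 3 tumors, and the groups did not overlap for Mmp13 and Mmp23.

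The first question was whether any gene of the family differed between the fractions. The fit that followed the study's stated methods was limma-voom without a tumor block, with Benjamini-Hochberg adjustment over all tested genes. In it, 0 of the 10 genes had an adjusted p under 0.05, where 0.121% of all tested genes did. It called 3 of all tested genes as higher in CD34 negative CAFs. The paper reports more upregulated genes than that as shared with its tumor comparison, so its calls were not reproduced by this fit. Without the tumor in the model, edgeR (0.0606% of all genes called) and DESeq2 (4.7%) also called 0 of the 10. An unadjusted p under 0.05 was reached by 4 of the 10, against 14.3% of all tested genes. Both fractions of a number came from the same tumor, and with the tumor as a block in the same model the 4 genes Mmp11, Mmp13, Mmp23 and Timp3 passed as higher in CD34 negative CAFs and 0 passed as lower. Of all tested genes, 8.57% passed with the block, 4.32% as higher in CD34 negative CAFs and 4.25% as lower. Without tumor 3 the same fit called a larger share of all genes, 883 of 15514 as higher and 1136 as lower. It then called 4 of the 10 as higher and 0 as lower, but not the same 4: Mmp2 passed and Timp3 did not, beside Mmp11, Mmp13 and Mmp23. With the block, edgeR called 1 of the 10 (Mmp11, against 3.87% of all genes) and DESeq2 called 3 (Mmp11, Mmp13 and Mmp23, against 11.7%). With the tumor as a random effect 1 was called (Mmp11, against 4.73%). The median log2 fold change (CD34 negative minus CD34 positive) of the 10 genes was 0.28, with 8 of 10 above 0, beside a median of -0.03 over all tested genes. The CPM ranges of the fractions did not overlap for 2 of the 10 genes, Mmp13 and Mmp23, both with the negative libraries above, where 20.5% of all tested genes did not overlap and 10.4% in this direction. The sign was the same in 3 of 3 tumors for 7 of the 10 genes and for 46.3% of all tested genes.

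Mmp11, stromelysin-3, is an MMP of stromal cells that is activated inside the cell by furin. It was at 339, 78.7 and 124 CPM in negative libraries 1, 2 and 3 and at 107, 29.2 and 27.2 CPM in positive libraries 1, 2 and 3. Tumor 1 was the highest in each fraction, and its positive library was above negative library 2, so the groups overlapped although each negative library was above its partner. Mean levels were 181 ± 139 CPM without and 54.5 ± 45.5 CPM with CD34 (SD, n = 3), a ratio of 3.32. Without the block the log2 fold change was 1.91 ± 0.61 (SE, adjusted p = 0.219), and with it 1.72 ± 0.17 (adjusted p = 7.03e-04, limma-voom). The 3 tumors taken singly gave log2 ratios of 1.66, 1.43 and 2.19. Mmp11 also passed with the block in edgeR (adjusted p = 0.0105), in DESeq2 (7.16e-16) and as a random-effect fit (0.0381), and it passed without a block once tumor 1 was left out (1.80, adjusted p = 0.0378). With the block and without tumor 3 the log2 fold change was 1.53 and the adjusted p 1.08e-04. Mmp11 shares 155 exon bases with Chchd10 on the other strand, which had 1940 counts in all libraries against 32108 of Mmp11, and whether counting used the strand was not stated.

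Mmp13, collagenase-3, is the principal MMP that cuts fibrillar collagens in the mouse. Negative libraries 1, 2 and 3 were at 110, 73.9 and 53.3 CPM and positive libraries 1, 2 and 3 at 29.0, 52.0 and 17.3 CPM. All negative libraries were above all positive libraries, and negative library 3 exceeded positive library 2 only narrowly. The log2 fold change was 1.22 ± 0.42 without the block (adjusted p = 0.247) and 1.15 ± 0.26 with it (adjusted p = 0.0255, limma-voom). The adjusted p with the block was 0.0521 in edgeR, 1.1e-04 in DESeq2 and 0.073 with the tumor as a random effect, so the call depended on the tool. Tumor 2 had the smallest log2 ratio (0.51), below those of tumors 1 (1.92) and 3 (1.62). Without tumor 2 the log2 fold change with the block was 1.77, and without tumor 3 it was 1.04 (adjusted p = 0.0223).

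Mmp23 encodes a membrane-anchored MMP without the hemopexin domain of most others. It was at 154, 134 and 114 CPM in negative libraries 1, 2 and 3 and at 83.0, 104 and 75.5 CPM in positive libraries 1, 2 and 3. The groups did not overlap, and the spread within each group was small for this family. Means and SDs of the 3 libraries were 134 ± 20.1 CPM without and 87.6 ± 14.8 CPM with CD34. The log2 fold change was 0.61 ± 0.20 without the block (adjusted p = 0.221) and 0.60 ± 0.14 with it (adjusted p = 0.0337, limma-voom). The call held in DESeq2 with the block (0.00847), but not in edgeR (0.0795), nor as a random-effect fit (0.0604). Without tumor 3 the log2 fold change with the block was 0.60 (adjusted p = 0.0282), and it did not pass without tumor 1 (0.47, adjusted p = 0.13) or tumor 2 (0.72, adjusted p = 0.0539).

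**Figure D2:**
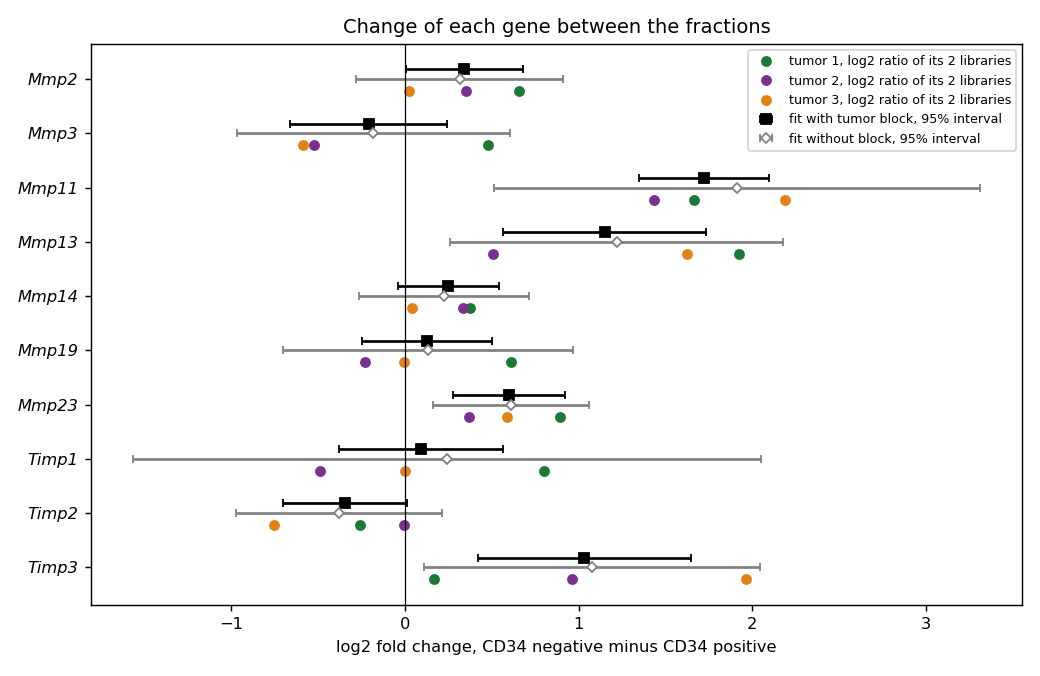
The x axis gives the log2 fold change, CD34 negative minus CD34 positive, for each of the 10 genes. Colored points are the log2 ratios of single tumors, and black squares and open diamonds are limma-voom estimates with and without the tumor block with their 95% intervals. Mmp11 had the largest estimate (1.72 with the block), and the interval of Timp1 without the block ran from -1.56 to 2.05.

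Mmp2 and Mmp14, whose products act in the same activation step, did not pass the test in either fit of all libraries. Mmp2, gelatinase A, which degrades denatured collagen and type IV collagen, was at 5352, 3193 and 3481 CPM in negative libraries 1, 2 and 3 and at 3399, 2502 and 3426 CPM in positive libraries 1, 2 and 3. Negative library 1 was highest and the other 5 libraries overlapped. Its log2 fold change with the block was 0.34, with a 95% interval of 0.00 to 0.68 and an adjusted p of 0.208, and without tumor 3 it was 0.49 with an adjusted p of 0.0469. Mmp14, the membrane-bound activator of MMP2, was at 1534, 1121 and 1241 CPM in negative libraries 1, 2 and 3 and at 1184, 890 and 1204 CPM in positive libraries 1, 2 and 3. Its groups overlapped, and the log2 fold change with the block was 0.25 with a 95% interval of -0.04 to 0.54 (adjusted p = 0.297).

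Mmp3, stromelysin-1, cleaves proteoglycans, laminin and fibronectin and can activate other MMP precursors. Its levels were 1640, 1531 and 810 CPM in negative libraries 1, 2 and 3 and 1177, 2206 and 1218 CPM in positive libraries 1, 2 and 3. The fractions overlapped, and tumor 1 had the opposite direction (a log2 ratio of 0.48) to tumors 2 (-0.53) and 3 (-0.59). With the block the log2 fold change was -0.21, with a 95% interval of -0.66 to 0.24, and without tumor 1 it was -0.55 with an adjusted p of 0.0396. Mmp3 was thus not shown to differ, whereas Mmp13 of the same chromosome 9 cluster, with the same motifs before its start, passed with the block. Whether the fold changes of Mmp3 and Mmp13 differ from each other was not tested.

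Mmp19, a secreted MMP of many tissues, was at 558, 388 and 225 CPM in negative libraries 1, 2 and 3 and at 365, 455 and 226 CPM in positive libraries 1, 2 and 3. The libraries of tumor 3 were lowest in both fractions and had nearly equal values. The log2 fold change with the block was 0.13 with a 95% interval of -0.25 to 0.50 (adjusted p = 0.725). Mmp19 shares 789 exon bases with Tmem198b on the other strand, which had 4125 counts against 108224.

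Among the inhibitors, Timp3, which is held in the extracellular matrix and also inhibits membrane sheddases of the ADAM family, had the largest fold change. It was at 1459, 3912 and 3221 CPM in negative libraries 1, 2 and 3 and at 1301, 2010 and 827 CPM in positive libraries 1, 2 and 3. Each negative library was above its partner, but by a log2 ratio of only 0.16 in tumor 1 against 0.96 in tumor 2 and 1.96 in tumor 3, and the groups overlapped. The log2 fold change was 1.08 ± 0.42 without the block (adjusted p = 0.306) and 1.03 ± 0.27 with it (adjusted p = 0.0479, limma-voom). With the block it did not pass in edgeR (0.155), in DESeq2 (0.367) or as a random-effect fit (0.114), nor in the limma-voom fit without tumor 3, whose negative library stood apart (0.53, adjusted p = 0.0863). Timp3 shares 1733 of its 8144 exon bases with Syn3 on the other strand, a gene with 133 counts in all libraries against 592146.

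Timp2, the inhibitor that also helps to activate MMP2, was at 1583, 1178 and 1266 CPM in negative libraries 1, 2 and 3 and at 1897, 1185 and 2138 CPM in positive libraries 1, 2 and 3. Each negative library was at or below its partner, with log2 ratios of -0.26, -0.01 and -0.76, and the groups overlapped. The log2 fold change with the block was -0.34 with a 95% interval of -0.70 to 0.01 (adjusted p = 0.23), so it did not pass. Timp1, a secreted inhibitor that acts poorly on membrane-bound MMPs, was at 214, 804 and 225 CPM in negative libraries 1, 2 and 3 and at 123, 1127 and 225 CPM in positive libraries 1, 2 and 3. Both libraries of tumor 2 were far above the other 4, and the fractions of tumor 3 were nearly equal. Its log2 fold change with the block was 0.09 with a 95% interval of -0.38 to 0.56 (adjusted p = 0.853), and its sign changed under edgeR and DESeq2 without the block.

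The difference between tumors exceeded the difference between fractions for several genes. An F test of the tumor term in the block fit, added after the values had been seen, called 3 of the 10 genes against 4.03% of all tested genes. These were Timp1 (adjusted p = 0.00352), whose tumor means spanned 2.55 on the log2 scale with tumor 2 highest, Mmp11 (0.00346), spanning 1.99 with tumor 1 highest, and Mmp19 (0.0406), spanning 1.00 with tumor 3 lowest. The median span over all tested genes was 0.63. For Timp1 the tumors thus differed by much more than its log2 fold change between fractions, while for Mmp11 the 2 quantities were of similar size.

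Levels of different genes were set side by side as TMM-scaled CPM per kilobase of exon. Mmp2 was highest of the 10 in both fractions, at a mean of 1318 in CD34 negative and 1022 in CD34 positive CAFs. In CD34 negative CAFs it was followed by Mmp3 (737), Timp3 (612), Mmp14 (500), Timp1 (466) and Timp2 (371), and then at a lower level by Mmp19 (113), Mmp23 (93.5), Mmp11 (80.3) and Mmp13 (29.5). Of the neighbours in this order, only Mmp2 and Mmp3, and Timp2 and Mmp19, did not overlap across libraries. The order in CD34 positive CAFs was Mmp2, Mmp3 (852), Timp1 (553), Timp2 (480), Mmp14 (421), Timp3 (295), Mmp19 (101), Mmp23 (61.1), Mmp11 (24.2) and Mmp13 (12.2), where only Timp3 and Mmp19, and Mmp23 and Mmp11, did not overlap. Timp3 was thus the first of the inhibitors in the negative and the last in the positive order, although its neighbours overlapped it in all but 1 place. The 3 MMPs that passed with the block were among the 4 least abundant of the 7.

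**Figure D3:**
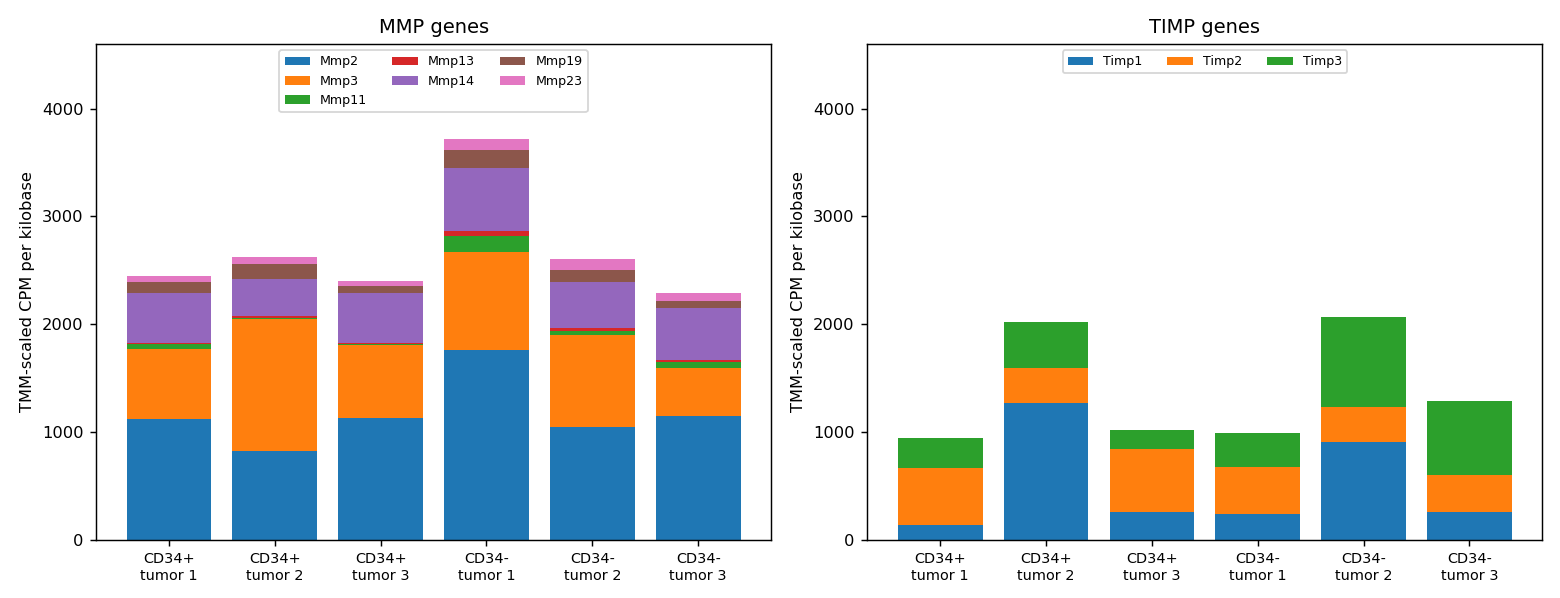
Stacked bars give the level of each MMP (left) and TIMP (right) per library, in TMM-scaled CPM per kilobase. Mmp2, Mmp3 and Mmp14 make up most of the MMP sum in every library, and the green part of the right panel is Timp3.

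The summed MMP level was 2872 ± 753 in CD34 negative and 2493 ± 118 in CD34 positive CAFs, and the summed TIMP level was 1448 ± 555 and 1328 ± 604 (SD, n = 3). The ratio of the sums was 0.541 ± 0.265 and 0.526 ± 0.212, a difference far below the spread between libraries. Timp3 made up 41.8% ± 10.97 of the TIMP sum in CD34 negative and 22.7% ± 6.26 in CD34 positive CAFs, and in the libraries these shares ran from 31.5% to 53.3% and from 17.3% to 29.6%. Mmp11 held 2.60% ± 1.36 of the MMP sum in CD34 negative and 0.981% ± 0.835 in CD34 positive CAFs. These sums are descriptions without a test.

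MMP14, TIMP2 and the MMP2 precursor form a complex at the cell surface, and the ratios of their transcripts were therefore set out after their values had been seen. The level of Timp2 per length was 0.740, 0.753 and 0.732 times that of Mmp14 in negative libraries 1, 2 and 3 and 1.15, 0.954 and 1.27 times in positive libraries 1, 2 and 3. The groups did not overlap, and the negative libraries lay within a narrow range. Of the other tested genes, 15.2% had a ratio to Mmp14 that was higher in all positive than in all negative libraries, so the pattern was not rare. The mean log2 ratio was lower by 0.59 in CD34 negative CAFs, and by 0.49 to 0.72 when each library or tumor was left out in turn. Timp2 over Mmp2 was 0.248, 0.310 and 0.305 in negative libraries 1, 2 and 3 and 0.469, 0.398 and 0.524 in positive libraries 1, 2 and 3. These groups did not overlap either, as was the case in this direction for 15.6% of genes set against Mmp2. Mmp2 over Mmp14 was 2.40 to 2.98 in CD34 negative and 2.40 to 2.45 in CD34 positive CAFs, and these ranges overlapped.

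**Figure D4:**
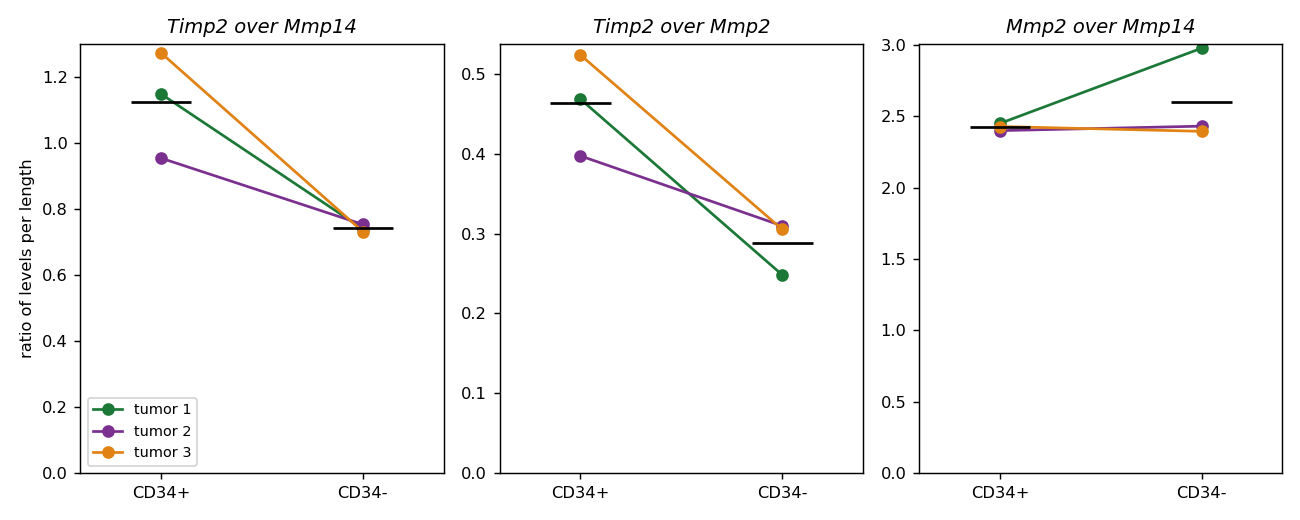
Each panel plots a ratio of 2 transcript levels per length in the 6 libraries, with lines joining the fractions of a tumor and bars at the means. Timp2 over Mmp14 lay at 0.732 to 0.753 in the negative and at 0.954 to 1.27 in the positive libraries, whereas Mmp2 over Mmp14 overlapped.

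The genes whose TMM-scaled log2 CPM followed Mmp11 most closely over the 6 libraries were Foxo3 (Pearson's r = 0.998), Abca3 (0.995) and Abhd4 (0.995), of 9015 genes searched. For Timp3 they were Itsn1 (0.991), Aqp5 (0.981) and Tpm1 (0.981). The 6 libraries come in pairs from 3 tumors, so these values describe likeness among few points that share tumors.

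Of 17 further MMP and TIMP genes, 10 passed the filter on low counts and 0 were called with or without the block. Mmp9, gelatinase B, is typically a product of neutrophils and macrophages, and had a log2 fold change of -0.90 with the block (adjusted p = 0.298). It was at 4.06, 18.1 and 28.0 CPM in negative libraries 1, 2 and 3 and at 40.8, 32.0 and 21.7 CPM in positive libraries 1, 2 and 3, with overlap. Without tumor 3, Mmp9 (-1.73, adjusted p = 0.0223) and Mmp16 (-1.01, adjusted p = 0.0246) passed with the block as lower in CD34 negative CAFs. The count of 0 thus did not hold without that tumor, where 1136 of 15514 tested genes passed as lower, against 4.25% with all libraries. Mmp27, of the chromosome 9 cluster that holds Mmp13 and Mmp3, was nearest to the threshold with all libraries in limma-voom, at -1.48 ± 0.43 with the block (adjusted p = 0.0673). Mmp17, a membrane-anchored MMP, had a log2 fold change of 0.84 ± 0.29 with the block (adjusted p = 0.124) with a positive log2 ratio in 3 of 3 tumors. The remaining tested genes were Mmp8, Mmp10, Mmp12, Mmp15, Mmp16, Mmp25 and Mmp28. Of the 7 genes that were not tested, Mmp20 had 0 counts in every library, which, at 3 counts per library, allows a level of up to 0.0346 CPM in the deepest and 0.185 CPM in the shallowest library, and Mmp1a, Mmp1b, Mmp7, Mmp21, Mmp24 and Timp4 had 13 counts or fewer in any library.

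The genes that activate, clear or anchor MMPs were taken from a list of 10. In limma-voom with the block 2 passed as higher and 1 as lower in CD34 negative CAFs, against 4.32% and 4.25% of all tested genes. Without the block 0 passed in limma-voom and edgeR. DESeq2 without it called Lrp1 (adjusted p = 0.0214) and Cd44 (0.0203), against 4.7% of all genes. Furin, the protease that activates MMP11, MMP14 and MMP23, was at 90.5, 105 and 86.6 CPM in negative libraries 1, 2 and 3 and at 45.8, 73.6 and 67.2 CPM in positive libraries 1, 2 and 3. The groups did not overlap, and the log2 fold change with the block was 0.58 ± 0.15 (adjusted p = 0.0488 in limma-voom, 0.0206 in DESeq2, 0.095 in edgeR and 0.0809 as a random-effect fit). Lrp1, an endocytic receptor that clears MMPs and TIMPs, had a log2 fold change of 0.74 ± 0.13 (adjusted p = 0.0107), a call lost in the edgeR block fit (0.0594) but held in DESeq2 with the block (1.67e-05). Cd44, a hyaluronan receptor that can hold MMPs at the cell surface, changed the other way, by -0.81 ± 0.14 (adjusted p = 0.00853). Plau, Plat, Plaur, Reck, Bsg, Cd63 and Tfpi2 did not pass, with log2 fold changes between -0.31 and 0.11. The same 3 genes passed without tumor 3.

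Of 5 genes of collagen uptake and other collagen degradation, 1 passed as higher and 2 as lower with the block in limma-voom, against 4.32% and 4.25% of all tested genes. Without the block 0 passed in limma-voom and none in edgeR. DESeq2 without it called Fap (adjusted p = 0.00503) and Ddr2 (0.00119) as lower, against 4.7% of all genes. Mrc2, an endocytic receptor for cleaved collagen, averaged 981 ± 141 CPM without and 595 ± 133 CPM with CD34 (SD; log2 fold change 0.74 ± 0.12, adjusted p = 0.00781 with the block). Fap, a surface protease that cuts denatured collagen, was lower in CD34 negative CAFs (-0.83 ± 0.16, adjusted p = 0.0126 in limma-voom, 2.08e-04 in DESeq2, but 0.0543 in edgeR with the block), as was Ddr2, a receptor for fibrillar collagen (-1.02 ± 0.15, adjusted p = 0.00417). Ctsk and Ddr1 did not pass, and the same 3 genes passed without tumor 3. The genes of this list thus did not move in a single direction.

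Of 6 substrate genes, 1 passed in each direction with the block in limma-voom, against 4.32% of all tested genes as higher and 4.25% as lower. All 6 had the same sign in 3 of 3 tumors, as did 46.3% of all tested genes. Without the block 0 passed in limma-voom, and none did in edgeR or DESeq2. Col4a2, a chain of basement membrane collagen, was at 3196, 1894 and 1051 CPM in negative libraries 1, 2 and 3 and at 1494, 1254 and 633 CPM in positive libraries 1, 2 and 3. Tumor 3 was lowest in each fraction and the groups overlapped, and the log2 fold change with the block was 0.81 ± 0.14 (adjusted p = 0.00861 in limma-voom, 0.0512 in edgeR and 0.163 as a random-effect fit). Fn1, fibronectin, was lower in CD34 negative CAFs by a log2 fold change of -0.80 ± 0.17 (adjusted p = 0.0182 in limma-voom, 0.0828 in edgeR and 0.0929 as a random-effect fit). Both substrate calls were thus lost in edgeR and with a random tumor effect, but held in DESeq2 with the block (1.33e-05 for Col4a2 and 1.3e-04 for Fn1). Col1a1 (0.45), Col1a2 (0.34), Col4a1 (0.53) and Col3a1 (-0.59) did not pass with the block in limma-voom. In DESeq2 with the block, Col4a1 (adjusted p = 0.0342) and Col3a1 (0.0223) passed. Without tumor 3 the limma-voom calls were Col4a2, Fn1 and, in addition, Col4a1 (0.60, adjusted p = 0.0415).

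**Figure D5:**
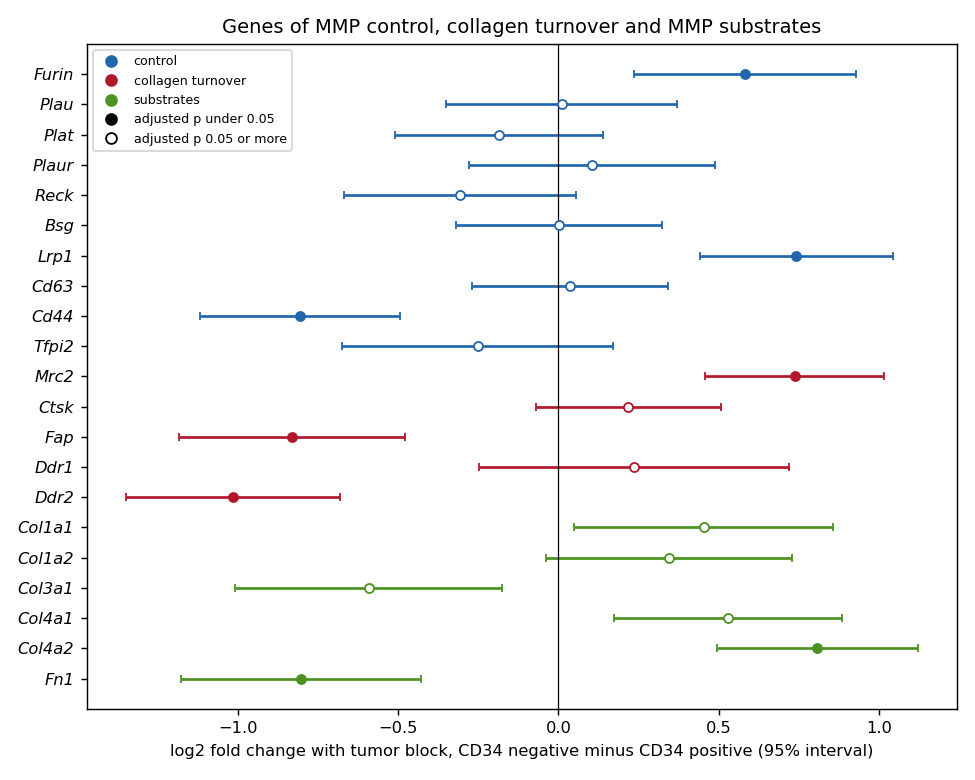
Points give the log2 fold change with the tumor block, CD34 negative minus CD34 positive, and bars the 95% intervals, for genes of MMP control, collagen turnover and MMP substrates. Filled points have an adjusted p under 0.05, and they lie on both sides of 0, with Lrp1 and Col4a2 on the right and Ddr2 and Fn1 on the left.

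Among 10 genes of the AP-1, ETS and RUNX factors that can bind MMP promoters, 1 passed as higher with the block in limma-voom and 0 as lower. Of all tested genes, 4.32% passed as higher and 4.25% as lower. Without the block 0 of the 10 passed in limma-voom, and none did in edgeR or DESeq2. Jund was at 1271, 783 and 421 CPM in negative libraries 1, 2 and 3 and at 572, 424 and 390 CPM in positive libraries 1, 2 and 3. Negative library 3 was below positive libraries 1 and 2, and the log2 fold change with the block was 0.71 ± 0.19 (adjusted p = 0.0479 in limma-voom, 0.0121 in DESeq2, 0.14 in edgeR and 0.173 as a random-effect fit). Fos (0.02), Fosl2 (-0.09), Ets2 (-0.17) and Runx2 (0.18) had small log2 fold changes that did not pass, and Junb (0.49), Ets1 (0.45), Jun (0.37) and Fosb (0.33) did not pass either. Without tumor 3, Jund was at 1.00 (adjusted p = 9.92e-04) and Junb also passed (0.70, adjusted p = 0.00618).

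Markers of other cells were measured beside these results, as sums of CPM scaled by the library total. The 6 fibroblast markers summed to 4942 to 7437 CPM in the negative and 6872 to 13316 CPM in the positive libraries, so markers of the labelled cell type were abundant in both. With the block in limma-voom 1 of 6 passed as higher (Pdgfrb) and 2 as lower (Dcn and Lum), as they did without tumor 3. For this and the marker counts below, 4.32% of all tested genes passed with the block as higher and 4.25% as lower. The 6 epithelial markers summed to 49.7 to 140 and 13.4 to 129 CPM, the 5 endothelial markers to 5.13 to 17.1 and 6.35 to 28.2 CPM, and the 7 immune markers to 12.9 to 17.1 and 6.65 to 19.6 CPM. In limma-voom and edgeR, 0 of these 18 genes were called with or without the block in all libraries. DESeq2 with the block called Krt8 (adjusted p = 0.0283, higher in CD34 negative CAFs) and Cd3e (0.0312, lower). Without tumor 3, limma-voom with the block called 3 (Krt8, Kdr and Cd3e). The epithelial sum was higher in the negative library of each tumor (140 against 129 CPM in tumor 1, 125 against 81.2 in tumor 2 and 49.7 against 13.4 in tumor 3), in the same direction as Mmp11, Mmp13, Mmp23 and Timp3. All 6 epithelial markers had a log2 fold change above 0, with a median of 0.90, and 5 of 6 had the same sign in 3 tumors. The part of these epithelial transcripts in the results for the MMP and TIMP genes was not tested. The 4 neutrophil markers summed to at most 0.985 CPM, and 0 of them passed the filter on low counts. Pericyte markers were called in both directions: with the block, 2 of 5 passed as higher in CD34 negative CAFs (Cspg4 by 1.81 and Mcam by 2.15 on the log2 scale) and 2 as lower (Kcnj8 by -2.31 and Abcc9 by -1.71), although Abcc9 was lost in the edgeR block fit (0.0645), and neither Kcnj8 (0.089) nor Abcc9 (0.143) did so as a random-effect fit. Rgs5 was at 3.72 to 10.7 CPM in the negative and 0.247 to 1.18 CPM in the positive libraries, and the groups did not overlap. In limma-voom it passed as higher with the block only without tumor 3 (1.81, adjusted p = 0.0184), where the other 4 also passed. In DESeq2 it passed as higher in all libraries, with the block (adjusted p = 0.00391) and without it (0.00329). The pericyte sum was 146 to 181 CPM in the negative and 67.0 to 156 CPM in the positive libraries, lower in the negative library of tumor 1 and higher in those of tumors 2 and 3, and its part in the results for the MMP and TIMP genes was not tested.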

How the data were processed

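RNA of sorted CAFs was sequenced on a NextSeq 500 from TruSeq RNA v2 libraries, and the labels name poly(A) RNA. Alignment to GRCm38/mm10 and counting by gene used Rsubread in the hands of the authors, and what they deposited are unnormalized read counts. Strand and multi-mapping settings were not given in the sources used here. Groups and tumor numbers came from the sample labels. Genes were filtered with filterByExpr (minimum count 10), scaled by TMM and tested with voom and limma (R 4.3.3, edgeR 4.0.16, limma 3.58.1), two-sided, with Benjamini-Hochberg adjustment over all tested genes and a threshold of 0.05. The fold changes and errors come from these fits. Fractions of the same tumor pair the libraries: across genes, their departures from the mean of their group correlated at 0.373, 0.350 and 0.219. The fit with the tumor as a block is therefore given beside the one without. Alternatives were edgeR, DESeq2 1.42.0, other normalizations, filters and weights, a random tumor effect, and leaving out libraries and tumors. The block on counts thinned to the smallest library total, the tumor term, the other lists without tumor 3 and the Timp2 ratios were added after seeing the data. limma-voom, edgeR and DESeq2, with and without the block, were tried on simulated data in which 200 of 14347 genes changed by 2 on the log2 scale. With the block they recovered 198, 200 and 199 of these, with 18, 13 and 64 false calls. Without it they recovered 155, 162 and 192, with 0, 0 and 8 false calls. The changed genes averaged at least 3 on the log2 CPM scale. The simulated spread was estimated with the block, which favours the fits that use it. Smaller changes, such as the 0.60 to 1.72 of the 4 genes called with the block, were not simulated. Levels per length used the gene lengths of the count table. Positions and promoters are from RefSeq (GRCm38.p6), and exon overlaps and the gene starts set beside them are from GENCODE. The genes, lists and the rule for named genes (all 10 genes, other family members past the filter, list members that pass or serve as examples, and the 3 nearest genes among those averaging at least 3 on the log2 CPM scale) were chosen with earlier results of these data known. P-values without the block set the difference against the spread between 3 tumors within each fraction. With the block they set it against the spread of the differences within tumors. Fits that leave out a tumor rest on fewer tumors still.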

Additional observations from a re-analysis of the deposited data

How the results depend on the processing

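The number of genes called depended on the model. Without a tumor block, 18 genes were called, and the number was 32 with library totals alone, 9 with edgeR, 698 with DESeq2 and 161 with sample quality weights. With the replicate block 1273 were called, 575 by edgeR and 1733 by DESeq2 with the block, 703 with the tumor as a random effect and 1073 with the block on counts thinned to the smallest library total. Without the block, leaving out 1 library gave 0 to 34 calls and leaving out a tumor 0 to 86; with it, leaving out tumors 1, 2 and 3 gave 1134, 851 and 2019. Of the 10 MMP and TIMP genes, 0 were called without the block and 4 with the replicate block. With the block, edgeR called 1 and DESeq2 called 3. The random-effect fit called 1, and the block on thinned counts 4. Leaving out a library or tumor gave 0 to 1 calls without the block. With it, leaving out a tumor gave 3 to 4, not always the same genes. Without tumor 1 they were Mmp11, Mmp13 and Timp3 as higher and Mmp3 as lower. Mmp23 did not pass without tumor 1 or without tumor 2. Timp1 changed sign under edgeR (-0.25) and DESeq2 (-0.26), and Mmp3 with quality weights (0.14); the cause was not tested. When 1 library was left out, log2 fold changes ran from -0.38 to 0.16 for Mmp3, -0.18 to 0.50 for Mmp19 and -0.48 to 1.02 for Timp1. Without tumor 3 Mmp3 was at 0.019. Without tumor 1 Mmp19 was at -0.095 and Timp1 at -0.19, and with the block at -0.12 and -0.25. Mmp2, Mmp11, Mmp13, Mmp14, Mmp23, Timp2 and Timp3 kept their direction in all 26 alternatives each. Replicates number 3 per fraction, and depth did not limit these abundant genes.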
